A study of Drosophila melanogaster with 6 samples.

Results

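The male gonad associated epithelium is a somatic cell type of the Drosophila melanogaster testis preparation, recognised in the study by abundant transcripts of CG18628 and of the metallothionein gene MtnA. Its members here were all cells that carried this name in the deposited cell annotation, 976 of 26549 kept cells. Single-cell RNA sequencing had been run on chinmoST and wild-type testes aged 3-5 d, 6-8 d or 9-11 d, with 1 library for each genotype and age and about 100 pairs of testes pooled in each. chinmoST males had the strain label ChinmoST and a genotype label that names the alleles Sod1[X-39] and e[1] over a TM3 balancer marked with Sb[1] and Ser[1], and wild-type males were Oregon R. Strain and genotype therefore cannot be told apart, and spread between libraries of a genotype covers age as well as sampling.

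chinmo encodes a transcription factor that acts with JAK-STAT signalling in somatic stem cells of the testis, and the ST (Sex Transformation) allele lowers its level in the cyst stem cell lineage, whose cells take on a female identity as the males age. Epithelia of the male tract are polarised sheets sealed by adherens and septate junctions, which rest on a basement membrane and secrete into a lumen. Metallothioneins are small cysteine-rich proteins that bind copper, zinc and cadmium. The values here are counts of 3′ transcript ends per gene, so levels are compared between libraries or types and not by gene length.

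The chinmoST libraries held 288, 146 and 150 cells of the epithelium in order of age, and the wild-type libraries held 155, 121 and 116. Each barcode was counted with unique molecular identifiers (UMIs, 1 for each captured transcript), summed here over the cells of a library and given as counts per 1000000 UMIs of those cells (CPM). The sums came to 1678153, 904070 and 1261640 UMIs in chinmoST and 1149825, 965178 and 1105452 UMIs in wild-type. A typical cell was shallower in chinmoST, with medians of 1898, 2046.5 and 2174 UMIs, against 3730, 4010 and 2674 in wild-type. A few cells dominated every sum. Cells of over 20000 UMIs numbered 13, 9 and 13 in chinmoST and 11, 11 and 9 in wild-type, and held 50.2, 51.2 and 63.1% of the UMIs in chinmoST and 39.3, 44.6 and 62.0% in wild-type.

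Across all kept cells, 1 library did not follow its genotype group. Of 7 X-linked genes that split the libraries, 4 were present in all chinmoST libraries and in wild-type 3-5 d but at or near 0 in the other wild-type libraries, and 3 were present in wild-type 6-8 d and 9-11 d alone. sordd2, for example, stood at 75.1, 73.8 and 58.8 CPM in chinmoST, and at 70.4, 0 and 0 CPM in wild-type. In addition, 9 autosomal genes were present in all wild-type libraries and at or near 0 in all chinmoST libraries, and 0 genes showed the opposite. Values without the wild-type 3-5 d library are given below wherever it decided a count. In cyst stem cells, chinmo itself stood at 5.91, 87.4 and 2.78 CPM in chinmoST and 324, 679 and 572 CPM in wild-type, from 3, 39 and 2 UMIs and from 34, 65 and 139 UMIs. Kept cells of different libraries shared 63 barcode sequences, of which 2 involved a cell of the epithelium.

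CG18628 is a gene named only by its annotation number, at 3L:10639740-10640136 on the plus strand. It was the most abundant transcript of the epithelium in every library. It took 28.9, 32.9 and 34.6% of all UMIs of the type in chinmoST, and 36.8, 42.8 and 45.0% in wild-type. Terminal epithelial cells came next among the annotated types with a mean of 16596 CPM, 22.2-fold lower than the mean in the epithelium. That mean rests largely on wild-type 6-8 d, at 53700 CPM, with 1570 to 13728 CPM in the other libraries. Somatic cells at the base of the testis followed with a mean of 9462 CPM, and reached 23917 CPM in chinmoST 9-11 d. MtnA, at 3R:9783407-9784370 on the minus strand, came second by its mean over the libraries. It took 4.37, 7.19 and 7.16% of UMIs in chinmoST and 2.05, 4.66 and 5.09% in wild-type. Its next highest type was again the terminal epithelial cells, with 5652 CPM, 9.00-fold lower. There the highest library was chinmoST 9-11 d, at 14443 CPM from 9 cells. Somatic cells at the base of the testis had 4660 CPM of MtnA. Because these genes gave the type its name, both comparisons are descriptions.

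**Figure D1:**
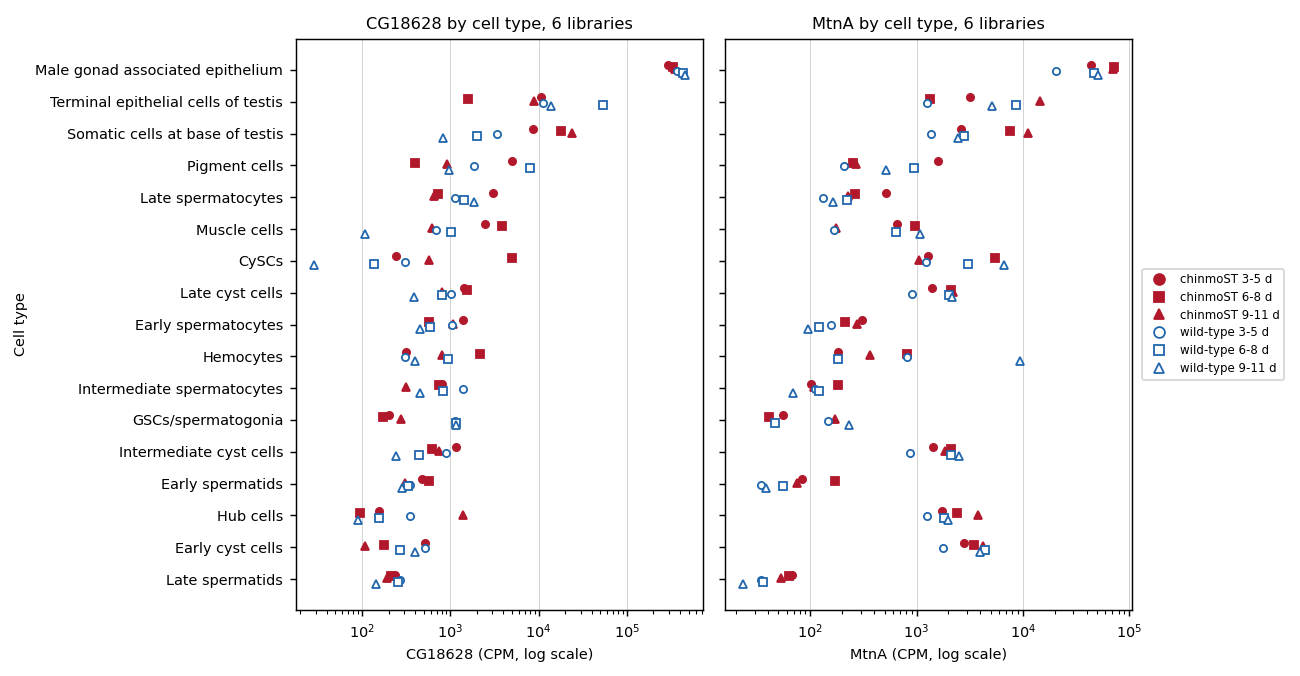
CG18628 (left) and MtnA (right) in each annotated cell type, in CPM on log axes, with 1 point for each library (filled red, chinmoST; open blue, wild-type; circle, 3-5 d; square, 6-8 d; triangle, 9-11 d). The male gonad associated epithelium stands above every other type in mean level for both genes, with terminal epithelial cells next at 16596 CPM of CG18628 and 5652 CPM of MtnA.

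Nearly every cell of the epithelium had both transcripts. CG18628 was detected in 99.3 to 100% of its cells per library and MtnA in 95.9 to 100%. Detection alone did not set the type apart, because CG18628 was also detected in 40.0 to 100% of the cells of other types, germ cells included, at medians of 1725.5 to 12665.5 UMIs in early spermatids. MtnA was detected in 16.7 to 50.6% of germ cells and in 65.4 to 100% of cyst stem cells. Free RNA in the droplets gives such detection in cells that do not express a gene, and how much of it was free RNA was not tested. Shares of a cell's own UMIs were taken in the epithelium alone, so they describe the type and were not compared with other types. The median cell gave CG18628 24, 25.9 and 21.8% of its UMIs in chinmoST and 30.6, 30.9 and 34.2% in wild-type, and 84 of the 976 cells (8.61%) gave it under 5%.

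**Figure D2:**
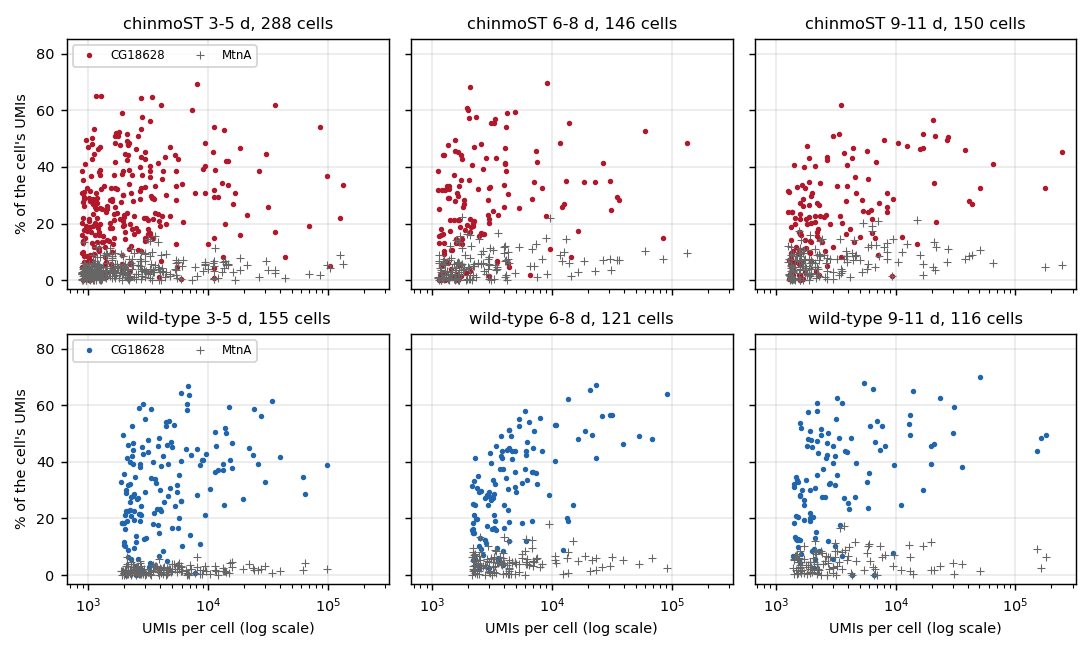
Percentage of each cell's UMIs from CG18628 (coloured dots) and MtnA (grey crosses) against the UMIs of the cell on a log axis, for the 3 chinmoST libraries (top) and the 3 wild-type libraries (bottom). The median cell gave CG18628 between 21.8 and 25.9% in chinmoST and between 30.6 and 34.2% in wild-type, and a low tail with little CG18628 lies at the left of every panel.

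The CG18628 share was larger in cells with more UMIs. In cells of up to 1500 UMIs the median was 16.0% in chinmoST and 20.9% in wild-type (182 and 9 cells), and in cells of over 20000 UMIs it was 34.1% in chinmoST and 49.2% in wild-type (35 and 31 cells). Germline marker UMIs ran the other way, from 0.169% of UMIs in the smallest chinmoST cells to 0.0262% in the largest, and from 0.231 to 0.0159% in wild-type. The part that background RNA plays in the small cells was not tested. The MtnA median was 6.07% in chinmoST and 2.84% in wild-type among cells of over 20000 UMIs.

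The next transcript by mean level was Jhbp5, annotated as a juvenile hormone binding protein. It took 2.46, 1.87 and 2.53% of UMIs in chinmoST and 3.67, 2.49 and 2.43% in wild-type, and late cyst cells reached 9622 CPM of it. In wild-type 3-5 d it was more abundant than MtnA. The 10 most abundant transcripts together took 40.7, 46.6 and 48.5% in chinmoST and 46.5, 53.5 and 56.0% in wild-type. The other metallothionein genes did not share the level of MtnA. MtnF stood at 115, 63.0 and 47.6 CPM in chinmoST and 188, 114 and 69.7 CPM in wild-type, MtnC and MtnE reached at most 1.79 CPM, and MtnD had no UMI.

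Markers of most other types were low in the epithelium, which bears on its label. The terminal epithelial markers Nep2, Nep4 and mnd summed to 9.51 to 31.0 CPM in chinmoST and 4.52 to 19.7 CPM in wild-type, against 766 CPM in terminal epithelial cells. Hemocyte markers summed to 0 CPM in chinmoST and at most 1.81 CPM in wild-type, and muscle markers to at most 1.79 CPM in chinmoST and 3.48 CPM in wild-type. Pigment cell markers reached 26.8 CPM in chinmoST and 59.1 CPM in wild-type, against 5883 CPM in pigment cells. The accessory gland list stayed at or under 1.79 CPM in chinmoST and 2.61 CPM in wild-type, with 2 of its 5 genes detected. Other male tract and tubule lists were not as low. The ejaculatory duct and bulb list, with 5 of 5 genes detected, summed to 485, 396 and 216 CPM in chinmoST and 491, 111 and 210 CPM in wild-type. In chinmoST most of it was EbpIII, a protein of the ejaculatory bulb, at 349, 390 and 216 CPM. In wild-type EbpIII stood at 223, 110 and 86.8 CPM. Dup99B, at 0 in chinmoST, stood at 40.0, 0 and 122 CPM in wild-type. Wild-type 3-5 d also had 121 CPM of EbpII and 107 CPM of Ebp. The Malpighian tubule list, with 7 of 7 detected, summed to 159 to 267 CPM in chinmoST and 266 to 331 CPM in wild-type, mostly from the water channel gene Drip. The 25 germline markers summed to 648, 340 and 338 CPM in chinmoST and 760, 661 and 319 CPM in wild-type. In the germ cell type with the highest mean sum they came to 12360 CPM. Hub markers summed to 358, 636 and 392 CPM in chinmoST and 217, 222 and 346 CPM in wild-type, mostly from Fas3, a septate junction adhesion protein of many epithelia. The defining hub gene org-1 was at 0.

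Both markers were among the 25 genes that led the type by the ratio of their mean CPM to that of the next highest type, among genes with at least 50 CPM. The largest ratios were 50.1-fold for lncRNA:CR43684 and 49.8-fold for CG42521, and the smallest was 7.94-fold for CG43101. For 12 of the 25, both markers included, the next type was the terminal epithelial cells, and no other type came next for more than 2. CG42521 lies at 3L:10623066-10623576, close to CG18628. It stood at 1416, 310 and 696 CPM in chinmoST and 838, 226 and 378 CPM in wild-type.

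Several leading genes have known roles in other fly tissues. Tenectin (tnc), a large mucin-like protein of the apical extracellular matrix, stood at 52.4, 215 and 152 CPM in chinmoST and 40.9, 177 and 493 CPM in wild-type. unc-13-4A, a member of the Munc13 family that acts in vesicle fusion, stood at 268, 489 and 651 CPM in chinmoST and 184, 763 and 1516 CPM in wild-type. Both were lowest at 3-5 d in each genotype. Lim1, a LIM-homeodomain transcription factor, stood at 231, 269 and 213 CPM in chinmoST and 183, 250 and 474 CPM in wild-type. The tetraspanin gene Tsp29Fb ranged from 121 to 206 CPM in chinmoST and from 100.5 to 144 CPM in wild-type. The ratios to the next highest type were 12-fold for Lim1 and 14.8-fold for Tsp29Fb.

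Not every leading gene was a property of most cells. CG42828 was detected in 72.8% of the 976 cells and CG7409 in 64.0%. The genes of the largest ratios were in fewer, lncRNA:CR43684 in 12.5% and CG42521 in 29.1%. For these, 1 cell held 23.0 and 25.7% of the UMIs. Detection was 16.5% for tnc, 24.5% for Tsp29Fb, 35.6% for Lim1 and 44.1% for unc-13-4A. Rarer still, Obp51a (an odorant-binding protein), the male-specific antimicrobial peptide andropin (Anp) and CG43101 were each found in about 1% of cells (1.02, 0.820 and 0.922%). A single cell held 53.7, 36.2 and 54.7% of their UMIs. All 3 were at 0 in chinmoST 6-8 d, chinmoST 9-11 d and wild-type 6-8 d. CG13323 reached 4078 CPM in chinmoST 9-11 d, and 1 cell held 53.1% of its UMIs over all libraries.

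**Figure D3:**
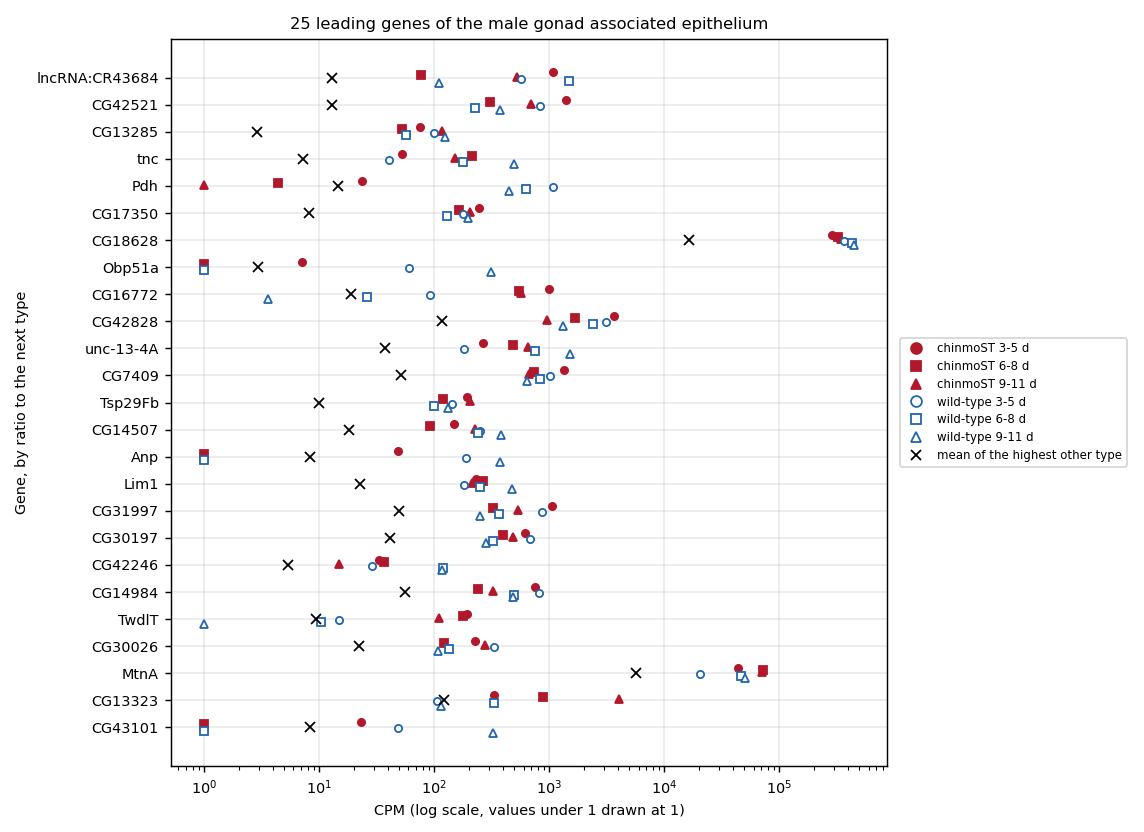
The 25 genes with the largest ratio of mean level in the male gonad associated epithelium to the next highest type, in order of that ratio, in CPM on a log axis, with values under 1 drawn at 1. Points are libraries (chinmoST filled red, wild-type open blue) and crosses mark the mean of the highest other type. The chinmoST and wild-type points do not overlap for Pdh, CG18628, CG16772, CG14507, TwdlT and CG13323, beside 12.7% of all genes tested between genotypes.

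The epithelium took a larger share of somatic cells in chinmoST at each age, but not beyond the spread of 3 libraries. That spread includes differences between ages, and the test did not pair libraries by age. The share was 6.63% (exact 95% interval 5.91 to 7.41), 11.1% (9.49 to 13.0) and 17.4% (14.9 to 20.1) in chinmoST, and 5.53% (4.71 to 6.44), 7.14% (5.96 to 8.47) and 8.39% (6.98 to 9.97) in wild-type. These intervals are Clopper-Pearson and cover counting error only. The means were 11.7 ± 5.41% in chinmoST and 7.02 ± 1.43% in wild-type (SD, n = 3 each), a difference of 4.71 points (two-sided exact permutation p = 0.3, where the smallest possible is 0.1). Without chinmoST 9-11 d the difference was 1.87 points, and over all kept cells it was 1.20 points with no overlap (exact permutation p = 0.1). A share depends on how many other somatic cells were captured and kept, and that part was not tested.

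Between genotypes, 0 of 5655 genes passed an adjusted p of 0.05 with edgeR's quasi-likelihood test over 3 against 3 libraries (percent called 0), and 450 genes had p under 0.05 before adjustment. With DESeq2 the number of calls was 29 (0.513%). Libraries of the same age deviated together, so age was also fitted as a block, and that fit called 58 genes (1.03%), 43 higher in chinmoST (0.76%) and 15 lower (0.265%). DESeq2 shared 27 of its 29 calls with it. The blocked count was unstable. It became 2 when every cell was thinned to 879 UMIs, 34 without cells of over 20000 UMIs, 0 without the 6-8 d libraries, 384 without the 3-5 d libraries and 734 without the 9-11 d libraries. The blocked calls below are therefore given as a description of these 6 libraries, with the values of each. For 718 genes (12.7%) no chinmoST library fell within the wild-type range or the reverse. Standard errors (SE) given with fold changes come from the spread of library log2 CPM.

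Pdh was among the 10 genes of smallest p. It encodes photoreceptor dehydrogenase, a retinol dehydrogenase known from the pigment cells of the eye. It stood at 23.8, 4.42 and 0.793 CPM in chinmoST and 1083, 632 and 450 CPM in wild-type. Its transcript was detected in 7.29, 2.74 and 0.667% of chinmoST cells and in 51.0, 57.0 and 50.0% of wild-type cells. The groups lay far apart, at means of 9.68 ± 12.4 CPM in chinmoST and 721 ± 326 CPM in wild-type (SD, n = 3 each). The log2 fold change was -6.12 (SE 0.99, adjusted p = 0.0725, edgeR), and with age as a block it was -6.45 (adjusted p = 0.00458). Blocked, the adjusted p was 2.52e-05 with thinned cells and 0.000285 without cells of over 20000 UMIs, but 0.223 without the 6-8 d libraries. Early spermatids, which should lack it, had Pdh in 0.133 to 0.154% of chinmoST cells and 0.548 to 2.44% of wild-type cells. In terminal epithelial cells it was at 0 in all chinmoST libraries, against 24.6, 51.2 and 12.8 CPM in wild-type.

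Genes on the other side of the comparison included a cuticle protein. TwdlT, of the Tweedle family of cuticle proteins, stood at 194, 180 and 111 CPM in chinmoST and 14.8, 10.4 and 0.905 CPM in wild-type (log2 fold change 4.24, SE 0.80, adjusted p = 0.0725; blocked 4.34, adjusted p = 0.00583, edgeR). It was detected in 13.5, 13.7 and 14.0% of chinmoST cells and 7.74, 5.79 and 0.862% of wild-type cells. CG16772, at 2L:19962679-19963844 on the plus strand, stood at 990, 544 and 567 CPM in chinmoST and 93.1, 25.9 and 3.62 CPM in wild-type (blocked log2 fold change 4.58, adjusted p = 0.0182, edgeR). One cell held 39.6% of its UMIs, and with thinned cells its blocked log2 fold change was 1.35 (adjusted p = 0.276). Its neighbour CG13965, at 2L:19961758-19962352 on the minus strand, had the same direction. It stood at 50.7, 34.3 and 48.3 CPM in chinmoST and 10.4, 7.25 and 3.62 CPM in wild-type (blocked adjusted p = 0.0187, edgeR).

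Both Gr43a and Lipt1 were absent from the chinmoST counts. Gr43a, a gustatory receptor that senses fructose in the fly brain and taste organs, had 0 UMIs in all chinmoST libraries and stood at 31.3, 28 and 22.6 CPM in wild-type. Lipt1, a lipoyltransferase that serves mitochondrial enzymes, had 0 UMIs in chinmoST and stood at 17.4, 18.6 and 19.0 CPM in wild-type. Against a floor of 3 counts over the chinmoST libraries, they were at least 35.0-fold and 23.5-fold higher in wild-type. Lipt1 was at 0 in all other kept chinmoST cells too, and at 3.44, 5.51 and 7.52 CPM in all other wild-type cells. Gr43a stood at 0.469, 0.243 and 0.852 CPM in all other chinmoST cells and 1.03, 1.11 and 0.721 CPM in all other wild-type cells.

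Lower-abundance genes filled the rest of the 10 with the smallest p. dgt3, a subunit of the augmin complex that builds spindle microtubules, stood at 29.2, 28.8 and 22.2 CPM in chinmoST and 2.61, 4.14 and 2.71 CPM in wild-type. In all other cells it stood at 5.85, 8.49 and 14.0 CPM in chinmoST and 3.96, 3.06 and 2.58 CPM in wild-type. Among the annotated types its means were highest in early spermatocytes (31.0 CPM) and in germline stem cells and spermatogonia (28.7 CPM). Early spermatocytes numbered 130, 452 and 906 in chinmoST, and 106 and 102 in wild-type 3-5 d and 6-8 d. How far the mix of types set such pooled values was not tested. Nepl15, of the neprilysin family of peptidases, stood at 25.0, 36.5 and 23.0 CPM in chinmoST and 3.48, 3.11 and 3.62 CPM in wild-type. The aquaporin gene Prip had 1 UMI in each chinmoST library and 23, 9 and 18 UMIs in wild-type. CG8012 was higher in chinmoST, but it was found in 0.820% of cells, of which 1 held 36.3% of its UMIs. Ugt37D1, a UDP-glycosyltransferase, stood at 52.4, 42 and 42.8 CPM in chinmoST and 12.2, 9.32 and 4.52 CPM in wild-type. In pigment cells Ugt37D1 stood at 551, 457 and 319 CPM in chinmoST and 297, 169 and 149 CPM in wild-type, and in all other cells it was higher in chinmoST at each age too. In the epithelium, for each of dgt3, Nepl15, Prip, CG8012 and Ugt37D1 every chinmoST library lay on one side of every wild-type library, as for 12.7% of all tested genes. They were picked by p from the same libraries, so this adds no support. None of them passed the unblocked test (adjusted p 0.0725 to 0.0820, edgeR).

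**Figure D4:**
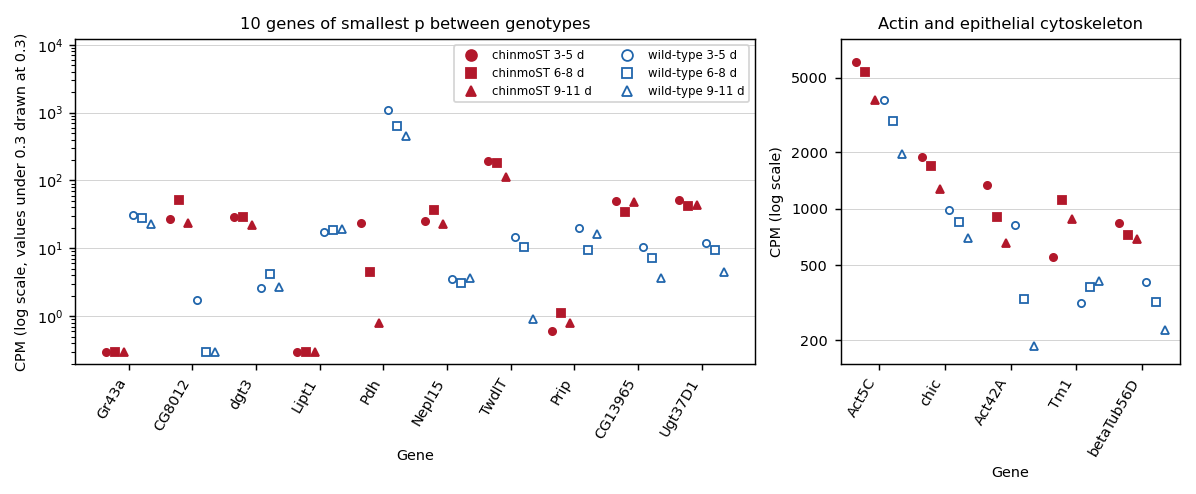
Levels by library of the 10 genes with the smallest p between genotypes (left, values under 0.3 CPM drawn at 0.3) and of 5 actin and cytoskeleton genes (right), in CPM on log axes. In each gene the chinmoST libraries (filled red) stand left of the wild-type libraries (open blue), with a circle for 3-5 d, a square for 6-8 d and a triangle for 9-11 d; Pdh lies under 24 CPM in chinmoST and at 450 CPM or more in wild-type.

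Of the gene lists, the actin and epithelial cytoskeleton list had the most blocked calls. Blocked, 5 of its 19 tested genes rose in chinmoST and 0 fell, where 0.76% of all genes were called higher. The lists were chosen with earlier results of these data known, so the larger share is a description and not a test. The median log2 fold change of the 19 was 0.77 without the block, beside -0.01 over all genes, and 14 of 19 were above 0. Act5C, a cytoplasmic actin, stood at 6072, 5357 and 3795 CPM in chinmoST and 3807, 2944 and 1958 CPM in wild-type (blocked log2 fold change 0.81, adjusted p = 0.0187, edgeR). betaTub56D, the main somatic beta-tubulin, stood at 837, 729 and 696 CPM in chinmoST and 406, 319 and 225 CPM in wild-type (1.27, adjusted p = 0.0187). The chinmoST and wild-type libraries of betaTub56D did not overlap, while those of Act5C did at different ages. The profilin gene chic stood at 1892, 1685 and 1283 CPM in chinmoST and 988, 851 and 701 CPM in wild-type. The other members called were Act42A, a second cytoplasmic actin, and the tropomyosin gene Tm1. None of the 5 passed the unblocked test (adjusted p 0.274 to 0.599). Blocked, all 5 kept their calls without cells of over 20000 UMIs, but 0 of 13 tested members passed with thinned cells and 0 of 19 without the 6-8 d libraries. Values outside the epithelium are given beside these, but sums over all other cells also move with the mix of types. That mix differed between libraries, and its part was not tested. In all other kept cells betaTub56D stood at 721, 814 and 876 CPM in chinmoST and 529, 575 and 639 CPM in wild-type. There chic stood at 1272, 1186 and 1014 CPM in chinmoST and 722, 899 and 983 CPM in wild-type, and Tm1 at 75.8, 114 and 114 CPM in chinmoST and 56.1, 59.4 and 65.7 CPM in wild-type. All 3 were higher in chinmoST at each age. Act5C, at 3129, 2185 and 1424 CPM in all other chinmoST cells and 1684, 1920 and 2081 CPM in all other wild-type cells, was higher at 3-5 d and 6-8 d and lower at 9-11 d. Act42A had the same pattern there, at 2038, 1230 and 903 CPM in chinmoST and 1444, 1157 and 1169 CPM in wild-type. In terminal epithelial cells betaTub56D stood at 742, 865 and 1442 CPM in chinmoST and 404, 424 and 594 CPM in wild-type, with no overlap.

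Among the other 17 lists, 3 had 1 blocked call each and 14 had 0. fabp, a fatty acid-binding protein, stood at 2374, 1613 and 604 CPM in chinmoST and 1004, 574 and 289 CPM in wild-type (blocked log2 fold change 1.25, adjusted p = 0.0187, edgeR). BomS3, a short secreted peptide of the Toll immune response, stood at 28.6, 293 and 892 CPM in chinmoST and 4.35, 8.29 and 0 CPM in wild-type (blocked adjusted p = 0.0270). It was detected in 7.89% of cells of the epithelium. In pigment cells BomS3 stood at 60.6, 3730 and 72.0 CPM in chinmoST and 0, 0 and 8.77 CPM in wild-type. The lone call among channels and pumps was Prip, given above.

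The defining transcripts themselves did not pass the unblocked test. CG18628 had means of 321336 ± 29122 CPM in chinmoST and 414998 ± 42367 CPM in wild-type (SD, n = 3 each). Its libraries did not overlap, and the log2 fold change of -0.40 did not pass (SE 0.21, adjusted p = 0.599, edgeR). With the block it was -0.39 (adjusted p = 0.0187), but the call was lost with thinned cells (adjusted p = 0.140) and without cells of over 20000 UMIs (0.252). MtnA was higher in chinmoST at each age, with a log2 fold change of 0.60 (adjusted p = 0.654) and 0.72 with the block (adjusted p = 0.0572). chinmo was low throughout, at 2.38, 15.5 and 20.6 CPM in chinmoST and 6.09, 13.5 and 4.52 CPM in wild-type (log2 fold change 0.68, SE 0.88, adjusted p = 0.805). CPM of all other genes moves with the share that CG18628 takes. Leaving CG18628 and MtnA out of the totals still gave 0 genotype calls.

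The genotype effect was also compared with that in other somatic types, with library as a term and types of at least 10 cells per library. Against terminal epithelial cells, which had 9 cells in chinmoST 9-11 d, 5 libraries were used, and 2 of 6434 genes differed (0.0311%). Against pigment cells all 6 were used, and 1 of 6810 genes differed (0.0147%). CG3348 stood at 195 and 43.1 CPM in chinmoST 3-5 and 6-8 d of the epithelium and 18.3, 1.04 and 3.62 CPM in wild-type. In terminal epithelial cells it stood at 6.47 and 11.1 CPM in chinmoST and 38, 10.7 and 19.3 CPM in wild-type. The difference of the log2 effects was 5.14 (adjusted p = 0.0206, edgeR). CG1698 was lower in chinmoST in the epithelium, at 13.7 and 4.42 CPM, against 40.9, 37.3 and 26.2 CPM in wild-type. In terminal epithelial cells it stood at 249 and 276 CPM in chinmoST and 219, 100 and 116 CPM in wild-type (difference -3.12, adjusted p = 0.0218). Pdh and Gr43a were not among the genes that differed.

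Age gave far more calls than genotype. With genotype as a term, 1264 of 6246 genes passed between the 4 later libraries (6-8 and 9-11 d) and the 2 libraries of 3-5 d (20.2%), of which 948 were higher later (15.2%) and 316 lower (5.06%). Without wild-type 3-5 d, the library that stood apart, 193 genes passed, and without chinmoST 3-5 d 565 passed. With thinned cells 297 passed, 179 higher and 118 lower, and with DESeq2 880 passed. List counts given below for these settings belong beside these smaller totals, not beside the shares of the main fit. A list that loses its calls there does so along with most genes. The groups of libraries did not overlap for 2588 genes (41.4%). In terminal epithelial cells the same contrast called 854 of 3974 genes (21.5%), and in pigment cells 58 of 3181 (1.82%). Of the libraries used, chinmoST 9-11 d had only 9 terminal epithelial cells. The later libraries hold exactly 5000 barcodes each, unlike those of 3-5 d, so age cannot be told apart from how the libraries were made and called.

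Several values moved with age in all cells, not only in the epithelium. The ribosomal RNA pseudogene 28SrRNA-Psi:CR45859 stood at 82.8, 3677 and 4828 CPM in chinmoST and 70.4, 3273 and 3094 CPM in wild-type in order of age (log2 fold change 5.86, SE 0.20, adjusted p = 9.92e-07, edgeR). Together, 6 such pseudogenes and the mitochondrial genes mt:srRNA and mt:ND2 made up 8 of the 10 named genes that rose most. mt:srRNA in all kept cells stood at 6.19, 323 and 466 CPM in chinmoST and 2.41, 159 and 195 CPM in wild-type. Genes that rose in the epithelium spanned a median of 9130 bases of the genome, those that fell 1159 bases, and all tested genes 2120 bases. The corresponding medians in terminal epithelial cells were 11267, 1082.5 and 2167 bases. How far these differences between libraries account for the lists below was not tested.

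MtnA rose with age in the epithelium, and was higher at both later ages in some other somatic types but not in all. The later libraries stood at 71939 and 71558 CPM in chinmoST and 46551 and 50900 CPM in wild-type, against 43733 CPM in chinmoST and 20487 CPM in wild-type at 3-5 d. The log2 fold change was 1.25 (SE 0.59, adjusted p = 0.00236, edgeR), and it passed in every alternative run, at 0.94 to 1.5 when each library was left out. In late cyst cells MtnA stood at 2134 and 2190 CPM in chinmoST and 2029 and 2163 CPM in wild-type at the later ages, against 1413 CPM in chinmoST and 912 CPM in wild-type at 3-5 d. Early and intermediate cyst cells, hub cells and somatic cells at the base of the testis had the same order in each genotype. In order of age, chinmoST broke it in terminal epithelial cells (3166, 1338 and 14443 CPM) and in pigment cells (1598, 253 and 267 CPM). Cyst stem cells and muscle cells of chinmoST and hemocytes of wild-type broke it too. Whether the change differed between types was not tested. MtnF fell, with a log2 fold change of -0.79 (adjusted p = 0.0473). In the list of copper, zinc and iron handling, 3 of 21 tested genes rose and 1 fell, a share that rose no larger than the 15.2% of all genes. Those that rose were Ctr1A, a copper importer (0.78, adjusted p = 0.0441), ATP7, a copper-exporting ATPase (1.99, adjusted p = 0.0128), and MTF-1, the transcription factor that activates metallothionein genes (2.24, adjusted p = 0.0325). The copper-zinc enzyme gene Sod1 fell (-0.67, adjusted p = 0.0413). With wild-type 3-5 d left out, 2 of 22 rose and 0 fell.

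CG18628 passed the age test as well, with a log2 fold change of 0.51 (adjusted p = 0.0207, edgeR), but the call was lost in 9 alternatives, each single-library omission among them.

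Epithelial junction genes rose with age in larger shares than all genes. Here too the lists were chosen with earlier results of these data known, so these and the following shares are descriptions. In the list of adherens junction and apicobasal polarity genes, 12 of 16 tested members rose and 0 fell, with a median log2 fold change of 1.34, beside -0.03 over all genes. E-cadherin (shg) stood at 25.6, 50.9 and 42 CPM in chinmoST and 6.96, 18.6 and 20.8 CPM in wild-type. Its partner beta-catenin (arm) stood at 47.1, 95.1 and 110 CPM in chinmoST and 41.7, 65.3 and 58.8 CPM in wild-type. For arm, every later library lay above both 3-5 d libraries. Bazooka (baz), the Par-3 polarity protein, stood at 35.2, 148 and 82.4 CPM in chinmoST and 24.4, 69.4 and 69.7 CPM in wild-type. The apical determinant Stardust (sdt) stood at 12.5, 42 and 38.8 CPM in chinmoST and 3.48, 36.3 and 51.6 CPM in wild-type, and atypical protein kinase C (aPKC) at 3.58, 23.2 and 15.1 CPM in chinmoST and 0.870, 13.5 and 14.5 CPM in wild-type. These genes are long, with a median span of 22393 bases over the 16. The count was 8 with DESeq2 and 1 without wild-type 3-5 d, and with thinned cells 3 members were tested and 1 rose.

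Septate junction genes divided. Of 25 tested, 11 rose and 2 fell, beside 15.2% and 5.06% of all genes. Those that rose included coracle (cora, 15.5, 47.6 and 36.5 CPM in chinmoST and 2.61, 20.7 and 20.8 CPM in wild-type), scrib, dlg1, l(2)gl, Nrg and the sodium pump subunit Atpalpha, which all belong to or assemble the junction or its polarity complex. The 2 that fell were the claudin kune and bou, a small GPI-anchored protein. kune stood at 325, 144 and 189 CPM in chinmoST and 253, 106 and 76.9 CPM in wild-type. Without wild-type 3-5 d, 0 of 26 passed. Of basement membrane genes and their receptors, 7 of 12 rose (beside 15.2% of all genes) and 0 fell, among them the integrin genes mys, scb, if and mew, the talin gene rhea, the receptor Dg and the laminin LanB2. Without wild-type 3-5 d, 1 of 12 passed.

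**Figure D5:**
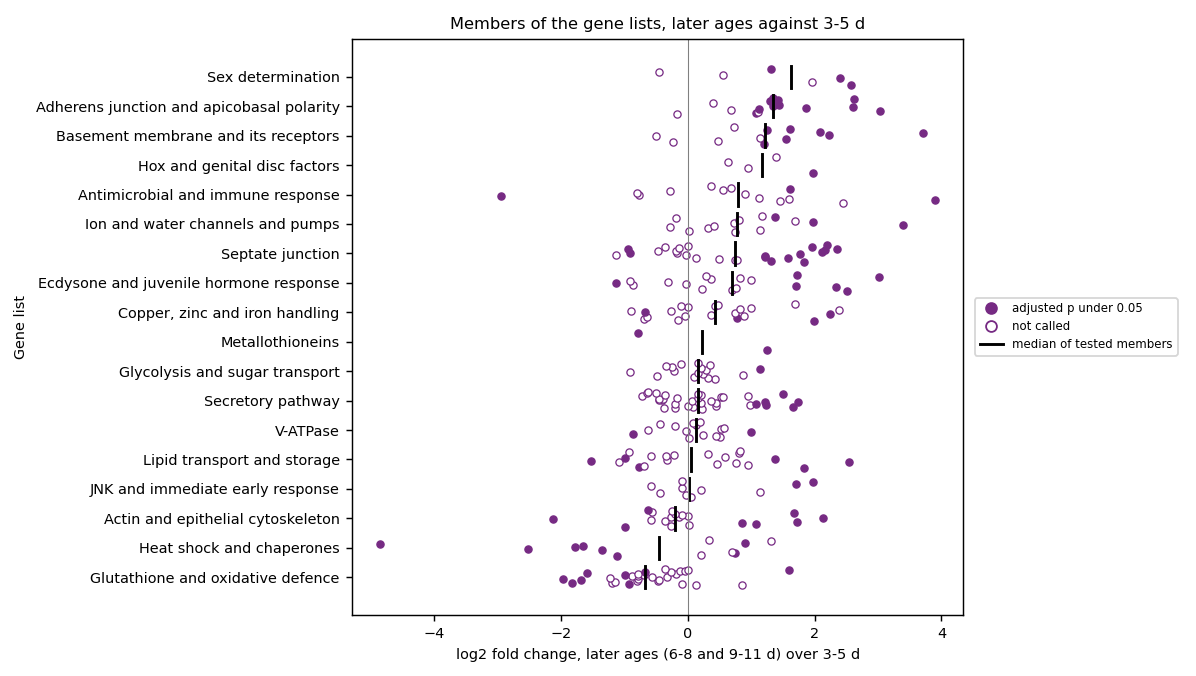
log2 fold change of later ages (6-8 and 9-11 d) over 3-5 d in the male gonad associated epithelium for each tested member of 18 gene lists, ordered by median, with 1 point for each gene (filled, adjusted p under 0.05; open, not called) and black bars for list medians. The adherens junction list has 12 of 16 members called to the right of 0 and none to the left, while the glutathione list has 7 of 30 called to the left.

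In the lists of oxidative defence and heat shock, more members fell than rose. In the glutathione and oxidative defence list, 7 of 30 fell, beside 5.06% of all genes, and 1 rose (median -0.68). These genes are short, with a median span of 1406.5 bases, like those that fell overall. GstD1, a glutathione transferase, stood at 1921, 977 and 680 CPM in chinmoST and 1439, 880 and 437 CPM in wild-type, and the peroxidase gene Gtpx at 647, 334 and 247 CPM in chinmoST and 600, 271 and 201 CPM in wild-type. The gene that rose was cnc, the Nrf2 homologue that activates this response. With thinned cells 8 of 18 fell, and without wild-type 3-5 d 0 of 30 passed. Over all genes 297 and 193 passed in these settings. In the heat shock and chaperone list 6 of 12 fell (beside 5.06% of all genes) and 2 rose (beside 15.2%). Hsp26 stood at 289, 80.7 and 102 CPM in chinmoST and 645, 64.2 and 33.5 CPM in wild-type, whereas the constitutive chaperones Hsc70-4 and Hsp83 rose. With thinned cells 2 of 8 rose and 0 fell, and without wild-type 3-5 d 0 of 12 passed.

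Regulators of sex and hormone response were low but measurable. Of 6 tested sex determination genes, 3 rose with age (beside 15.2% of all genes) and 0 fell: Sxl (log2 fold change 2.58), tra2 (1.32) and dsx (2.40). dsx, the last transcription factor of the somatic sex pathway, stood at 2.98, 4.42 and 6.34 CPM in chinmoST and 1.74, 17.6 and 24.4 CPM in wild-type. The step was thus mainly in wild-type, and without wild-type 3-5 d 0 of 7 tested sex determination genes passed. These counts cannot separate the male and female splice forms, since reads come from 3′ ends counted per gene. Of 17 tested genes of ecdysone and juvenile hormone response, 5 rose and 1 fell, beside 15.2% and 5.06% of all genes. Without wild-type 3-5 d, 1 of 19 rose and 0 fell. The receptor EcR stood at 4.77, 21.0 and 18.2 CPM in chinmoST and 4.35, 12.4 and 37.1 CPM in wild-type, and its partner usp rose too. Jheh1, a juvenile hormone epoxide hydrolase, fell. abd-A, a Hox gene of the abdomen, stood at 47.7, 97.3 and 80.1 CPM in chinmoST and 26.1, 113 and 242 CPM in wild-type (log2 fold change 1.98, adjusted p = 0.0157, edgeR) and was the lone call of 4 tested Hox and genital disc factors. None of those 4 passed when wild-type 3-5 d was left out.

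Among lipid genes 3 of 20 rose, no larger a share than the 15.2% of all genes, and 3 fell (beside 5.06%). With wild-type 3-5 d left out, 1 of 20 rose and 0 fell. The lipocalin NLaz stood at 2345, 1536 and 1581 CPM in chinmoST and 4498, 1552 and 1008 CPM in wild-type and fell (-0.98). FASN2, a fatty acid synthase, stood at 8.34, 50.9 and 31.7 CPM in chinmoST and 3.48, 26.9 and 9.05 CPM in wild-type and rose (2.54, adjusted p = 0.00635). Its next highest type, somatic cells at the base of the testis, had 2.60 CPM. Of 34 secretory pathway genes 6 rose and 0 fell, and of 15 tested V-ATPase genes 1 rose and 1 fell, beside 15.2% and 5.06% of all genes.

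The 10 named genes that fell most with age included 5 that belong to seminal fluid. Sfp60F, Sfp87B, Sfp24Bb, EbpII and Ebp encode secreted proteins of the accessory glands and ejaculatory bulb. Sfp60F stood at 88.2 CPM in chinmoST and 88.7 CPM in wild-type at 3-5 d, and had 0 UMIs in all 4 later libraries, so that the 3-5 d libraries were at least 125-fold above a floor of 3 counts over the later libraries. Few cells carried it. It was found in 22 chinmoST cells and 2 wild-type cells, with up to 115 and 101 UMIs in 1 cell. EbpII was found in 24 and 2 cells at 3-5 d, at 114 CPM in chinmoST and 121 CPM in wild-type. In all other cells at 3-5 d EbpII stood at 737 CPM in chinmoST and 0.418 CPM in wild-type, and Sfp60F at 658 CPM in chinmoST and 0.295 CPM in wild-type. Among the annotated types cyst stem cells had the highest mean level of Sfp60F (7613 CPM) and EbpII (8502 CPM). Obp56g, also among the 10, had its highest mean there too (5019 CPM). These means rest on chinmoST 3-5 d, with 26 cyst stem cells. In all other cells of the later chinmoST libraries Sfp60F stood at 3.60 and 0 CPM and EbpII at 4.37 and 0 CPM. In both genotypes 1 cell of the epithelium held most of the Sfp60F UMIs at 3-5 d, 115 of 148 in chinmoST and 101 of 102 in wild-type.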

How the data were processed

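Single-cell RNA was measured with 10x 3′ chemistry in 6 libraries, 3 of chinmoST and 3 of wild-type testes. Per the labels and methods, the authors aligned reads to dm6 with Cell Ranger 4.0.0 and deposited UMI counts per gene and barcode. They filtered and annotated cells with Seurat 3.2.2, keeping 200 to 6000 genes per cell. Their methods name no step that removes doublets (droplets that hold several cells), and none was applied here. The deposited metadata gives each kept cell's cell type and mitochondrial percentage, limited by the authors to 10 percent. Ages are written in days (d). Gene positions come from the BDGP6 annotation.

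UMIs were summed over the cells of the type in each library, since cells are not replicates. Genotype was tested on the counts of 3 against 3 libraries, and age on 4 later against 2 libraries of 3-5 d with genotype as a term. Both used edgeR 4.0.16 in R 4.3.3 (quasi-likelihood test, TMM factors, filterByExpr, Benjamini-Hochberg adjustment over all genes tested). Adjusted p in the text comes from these fits, and SE from the spread of log2 CPM between libraries with a prior count of 2. DESeq2 1.42.0, other scaling, filters, cell weights and omitted libraries were alternatives. Libraries of the same age deviated together (correlations 0.739, 0.283 and 0.426), so age was also fitted as a block. Shares were compared with exact permutation tests in scipy 1.17.1. The differences between libraries may be technical.

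Named genes were the study's 2 markers, the 25 leading genes, the 10 of smallest p between genotypes, the 10 largest age changes in each direction, and members of 18 lists (461 of 467 symbols matched). Members and lists were chosen with earlier results of these data known. The unblocked genotype fit and the age fit were tested on simulated data. The blocked fit, the comparisons between types and DESeq2 were not.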

Additional observations from a re-analysis of the deposited data

Results flagged for a closer look

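Among the 4 later libraries, 1 library lay far from the others for 5 of 20 genes tested in this way. In chinmoST 6-8 d, Sfp87B stood at 1.11 CPM, and EbpII, Ebp and Obp56g at 2.21 CPM each. CG6055 stood at 10.4 CPM in wild-type 6-8 d. The values of 1.11 and 2.21 CPM are 1 and 2 UMIs, and the other 3 later libraries had 0 UMIs of these genes. Any single UMI sets a library apart in that case, so the usual chance of about 1 in 20 does not apply and nothing is read from these values.

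The genotype effect differed between the epithelium and another type for 3 genes in the test of the difference itself (edgeR, library as a term). It was larger in the epithelium than in terminal epithelial cells by 5.14 on the log2 scale for CG3348, and the difference was -3.12 for CG1698. For IM33, an immune-induced peptide, the difference from pigment cells was -8.69 (adjusted p = 0.0357). IM33 stood at 0.596, 6.64 and 0 CPM in chinmoST and 3.48, 0 and 10.9 CPM in wild-type cells of the epithelium, and at 39.2, 1075 and 92.6 CPM in chinmoST and 0, 7.06 and 0 CPM in wild-type pigment cells.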

How the results depend on the processing

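The count of genotype calls, 0, became 29 with DESeq2, 61 with no filter on low counts, 1 with thinned cells and 1 without cells of over 20000 UMIs, and was 0 to 15 when each library was left out (15 without wild-type 3-5 d, 1 without chinmoST 3-5 d). With age as a replicate block it was 58, and under that block 2 with thinned cells, 34 without cells of over 20000 UMIs, 554 with a common minimum of 2105 UMIs per cell, 384 without the 3-5 d libraries, 0 without the 6-8 d libraries and 734 without the 9-11 d libraries. Blocked, chinmo changed sign, to -0.053 with the UMI minimum and -0.21 without the 9-11 d libraries. Age calls numbered 1264, 785 with the UMI minimum, 297 with thinned cells, and 193 to 1483 when each library was left out (193 without wild-type 3-5 d, 392 without chinmoST 6-8 d, 565 without chinmoST 3-5 d, 654 without chinmoST 9-11 d). Without TMM factors age calls were 673 higher and 689 lower, and the median of all genes moved to -0.30. The genes that differed from terminal epithelial cells numbered 0 without the library term (no replicate block), 4 without TMM factors, 13 with all 6 libraries, and 1 to 6 when each library was left out. For pigment cells the counts were 0, 9 and 0 to 2 under the library term removed, no TMM factors and each library left out. The difference in share of somatic cells was 1.87 to 7.25 points when each library was left out. The cause of these changes was not tested. Alternatives on thinned cells, large cells, blocked subsets and all 6 libraries were chosen after seeing the data. With 1 library per genotype and age, and few cells holding about 50% of the UMIs, genes of a few UMIs per library are measured with little precision.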
